A study of Mus musculus with 12 samples.

Results

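A group of 10 genes of MHC class I antigen presentation were followed in mouse liver and in a mouse macrophage line, each with and without esculetin, a plant coumarin. They were the heavy chains H2-K1 and H2-D1, the light chain B2m, the peptide transporter subunits Tap1 and Tap2, the loading factor Tapbp, the immunoproteasome subunits Psmb8, Psmb9 and Psmb10, and the transactivator Nlrc5. Members were chosen by symbol, and all 10 were found among the 55357 gene identifiers of each count table. Of these, 7 lie on chromosome 17, 2 on chromosome 8 and 1 on chromosome 2. RNA sequencing covered 12 libraries in 4 groups of 3, and the study used them to ask how esculetin alters transcription in macrophages loaded with lipid and in the livers of HFD-fed mice.

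The liver groups came from wild-type (WT) male C57BL/6J mice 8 to 9 weeks old, gavaged daily over 7 days with 90 mg/kg of esculetin or with 2.5% Tween-80 alone. All of these mice ate a control diet with 10% of its energy from fat for 4 days and then a high-fat diet (HFD) with 60% for 3 days, so no liver group lacked the fat load. Each liver sample held material of 2 mice, so a replicate is a pool. The cell groups were RAW264.7 cells labelled WT, a virus-transformed macrophage line. All of them received 25 µg/mL of dye-labelled oxidized low-density lipoprotein (oxLDL) for 24 hours, with 40 µg/mL of esculetin or with DMSO, so no cell group was free of oxLDL. Nothing in the sources used here says that the 3 cell libraries of a group were separate cultures, and p-values for them measure the spread between these libraries, which may be technical. RAW264.7 cells derive from BALB/c mice, whose class I alleles differ from those of the C57BL/6J reference genome. The part of this difference in the class I values was not tested.

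Class I molecules display peptides from inside the cell to CD8+ T cells. Peptides are cut by the proteasome, carried into the endoplasmic reticulum by the TAP transporter, trimmed there and loaded with the help of tapasin (Tapbp) onto a heavy chain paired with β2-microglobulin (B2m). Interferons raise most genes of this route and exchange the constitutive catalytic subunits of the proteasome for inducible ones, which form the immunoproteasome, while NLRC5 acts at class I promoters together with RFX, CREB and NF-Y factors.

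The stretch before the start of H2-K1 is shown because it holds the classical control region of a class I heavy chain, and 30-base sites of H2-D1, B2m, Psmb8 and H2-T23 are shown because their transcripts are compared below. Sequences are from the RefSeq promoter table, in the direction of transcription, and were placed on GRCm39 by exact match. Capitals mark matches to 3 motifs of interferon and NF-kB response, searched on both strands. These are the interferon-stimulated response element (ISRE, which is GAAA, 2 free bases and GAAA), the gamma-activated site (GAS, TTCNNNGAA) and the NF-kB motif (GGGRNNYYCC). R stands for A or G, Y for C or T and N for any base.
H2-K1, chr17:34219322-34219521, minus strand, NF-kB in capitals: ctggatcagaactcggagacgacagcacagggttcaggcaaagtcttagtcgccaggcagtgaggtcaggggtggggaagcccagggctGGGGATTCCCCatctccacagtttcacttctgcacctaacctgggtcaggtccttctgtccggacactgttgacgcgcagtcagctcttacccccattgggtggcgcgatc
H2-D1, chr17:35481890-35481919, plus strand, NF-kB in capitals: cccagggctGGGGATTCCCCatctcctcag
B2m, chr2:121978026-121978055, plus strand, ISRE and then NF-kB in capitals: catGAAACTGAAAatgGGAAAGTCCCtttg
Psmb8, chr17:34417062-34417091, plus strand, GAS in capitals: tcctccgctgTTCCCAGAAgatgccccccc
H2-T23, chr17:36343698-36343727, minus strand, ISRE on the other strand in capitals: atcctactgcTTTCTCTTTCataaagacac

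Among 32851 RefSeq windows of 300 bases around a gene start, 3.44% held the ISRE letters, 8.30% the GAS letters and 8.46% the NF-kB motif. Windows were given for 8 of the 10 members. Of these, B2m held the ISRE letters, Psmb8 the GAS letters, and H2-K1, H2-D1 and B2m the NF-kB motif. Only exact matches were searched, so a stretch that differs by a single base is neither counted nor marked. The marked ISRE and NF-kB letters of B2m do not overlap, and its NF-kB match is on the other strand. H2-K1 and H2-D1, of which only H2-D1 was called in the cells, were 87.4% identical over the 190 bases compared before their starts. The genes were lined up without gaps at the NF-kB match, which begins 111 bases before the start of H2-K1 and 171 before that of H2-D1. These are bases of the reference genome. The bases of the BALB/c-derived cells were not compared, and the responses of the genes were not tested against each other. In the GENCODE annotation, some transcripts of H2-D1, B2m, Psmb8 and H2-T23 place a UTR over the site shown, and none does over the stretch of H2-K1. A match is a description of these letters and not a measured site.

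Total counts ran from 14659876 to 20346460 per liver library and from 13752842 to 20001959 per cell library. The first principal component separated the cell libraries by treatment and held 79.0% of their variance. In the liver it held 40.8%, and control replicate 1 stood apart at -46.1, with the other 5 libraries between -3.27 and 18.4. Levels are given as CPM, which are counts relative to library size scaled by the trimmed mean of M-values (TMM). Fold changes are log2 of esculetin over control with their standard error (SE), and called genes are those whose p in edgeR's quasi-likelihood test, after Benjamini-Hochberg adjustment over all genes tested, was under 0.05. Hepatocyte markers summed to between 105665 and 133204 CPM in every liver library and to at most 0.146 CPM in the cells, where 4 of the 6 markers were at 0. Of 9 macrophage markers, Csf1r, Lyz2 and Cd68 were abundant in the cells, while Timd4 was at 0.

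In the oxLDL-treated cells, most members were modestly lower with esculetin. Tap2, H2-D1, B2m, Tap1 and the 3 immunoproteasome subunits Psmb8, Psmb9 and Psmb10 fell, Tapbp rose, and H2-K1 and Nlrc5 were not called. By edgeR, 8 of the 10 members were called, 7 lower and 1 higher, beside 57.7% of the 13277 genes tested in that table (29.0% lower and 28.7% higher). The median log2 fold change of the 10 members was -0.35, beside -0.01 over all genes tested, whose middle 50% lay between -0.47 and 0.48. Member groups did not overlap in 7 genes that were lower and 1 that was higher, beside 33.1% and 31.0% of all genes. The count of called members was 3 without control replicate 3, 5 without control replicate 2 or esculetin replicate 2, 6 without control replicate 1 or esculetin replicate 1 and 7 without esculetin replicate 3. Under the study's own criterion (a fold over 1.5 and a p under 0.05 before adjustment, here in limma-voom) 3 members passed, beside 38.0% of all genes. Those that passed were Tap2, Psmb9 and Psmb10, and H2-D1, B2m, Tap1, Psmb8 and Tapbp lost their calls. The study reported fewer genes past this criterion in these cells, and the reason for the difference was not tested.

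**Figure D1:**
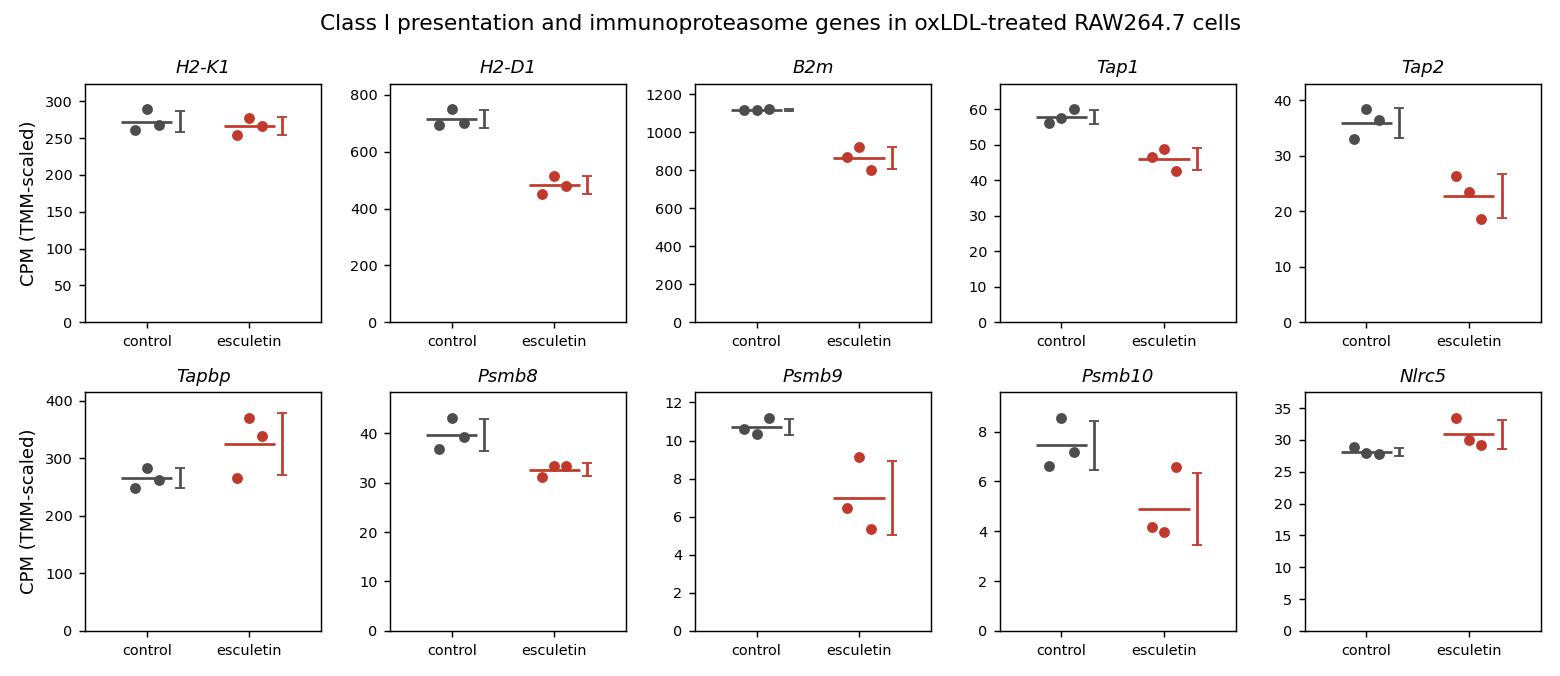
CPM (vertical axes, TMM-scaled) of the 10 genes in oxLDL-treated RAW264.7 cells. Points are libraries, 3 control in grey and 3 esculetin in red, horizontal lines are means and bars show 1 SD. H2-D1, B2m, Tap1, Tap2, Psmb8, Psmb9 and Psmb10 sat lower in every esculetin library than in any control, while H2-K1 overlapped.

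Of the classical heavy chains, H2-D1 was called and H2-K1 was not. H2-D1 (ENSMUSG00000073411, chr17:35481691-35486475, plus strand), which presents peptides to CD8+ T cells, stood at 693, 750 and 703 CPM in the control cells and at 451, 516 and 481 CPM with esculetin. All 3 esculetin libraries lay below all 3 controls. The log2 fold change was -0.57 ± 0.09 (SE, n = 3 per group), with an edgeR adjusted p of 0.000187. H2-K1 (ENSMUSG00000061232, chr17:34214987-34219321, minus strand), the other classical heavy chain of this reference, stood at 261, 289 and 268 CPM in controls and at 254, 278 and 267 CPM with esculetin. The groups overlapped, and the log2 fold change of -0.03 had a 95% interval from -0.21 to 0.14 and an edgeR adjusted p of 0.740. How reads were divided among similar copies was not tested. Of the 150-base windows of the H2-D1 transcript, 16.7% also occurred exactly in 5430410E06Rik, an overlapping gene on the opposite strand, or in H2-Q1. Of those of H2-K1, 8.78% occurred in Gm53999, also an overlapping gene on the opposite strand, and none in another class I gene. Windows that differ by a single base from a similar copy are not counted in these shares. With the counts of H2-K1 and H2-D1 summed into 1 feature, the log2 fold change was -0.40 (edgeR adjusted p = 0.00235), and with all H2-K, H2-D, H2-Q, H2-T and H2-M genes summed it was -0.20 (edgeR adjusted p = 0.0767).

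B2m (ENSMUSG00000060802, chr2:121977957-121983594, plus strand), the light chain shared by class I molecules, was the most abundant member per length, at 1030 ± 3.24 CPM per kb of its canonical transcript in the control cells (SD, n = 3). H2-D1 followed at 338 ± 14.4 CPM per kb, H2-K1 at 168 ± 9.21 and Tapbp at 88.9 ± 5.86, and the other members lay between 3.71 (Nlrc5) and 23.3 (Psmb8). In CPM, B2m read 1116, 1116 and 1122 in controls and 871, 921 and 802 with esculetin. The control libraries were nearly level, and every esculetin library was below them. The log2 fold change was -0.37 ± 0.09 (SE, n = 3 per group; edgeR adjusted p = 0.00370).

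Both subunits of the peptide transporter fell. Tap2 (ENSMUSG00000024339, chr17:34422501-34435829, plus strand) read 33.0, 38.3 and 36.3 CPM in controls and 26.3, 23.4 and 18.6 CPM with esculetin, without overlap. Its log2 fold change was -0.66 ± 0.14 (SE, n = 3 per group; edgeR adjusted p = 0.00151), the lowest among the members, and the call held in all 16 alternative settings run. Tap1 (ENSMUSG00000037321, chr17:34405996-34416199, plus strand) read 56.2, 57.4 and 60.0 CPM in controls and 46.5, 48.9 and 42.7 CPM with esculetin. These groups did not overlap either, and the log2 fold change was -0.33 ± 0.09 (SE, n = 3 per group; edgeR adjusted p = 0.00840). The call of Tap1 was lost without control replicate 3 and under the study's criterion.

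Tapbp (ENSMUSG00000024308, chr17:34134873-34148267, plus strand), which bridges the transporter and the heavy chain, was called in the opposite direction. It read 249, 283 and 262 CPM in controls and 265, 370 and 339 CPM with esculetin. Esculetin replicates 2 and 3 were above every control, while replicate 1 lay within the control range. The log2 fold change was 0.29 ± 0.12 (SE, n = 3 per group; edgeR adjusted p = 0.0486). This call was held in 8 of 16 alternative settings, and it was lost when any single control replicate was left out, without esculetin replicate 2 or 3, under library size scaling and in limma-voom. Tapbp also shares exon sequence with neighbouring genes, since 16.8% of its 150-base windows occurred in another gene.

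The catalytic subunits of the immunoproteasome all fell. Psmb9 (ENSMUSG00000096727, chr17:34400960-34406738, minus strand), the inducible counterpart of Psmb6, read 10.6, 10.3 and 11.2 CPM in controls and 6.44, 9.13 and 5.35 CPM with esculetin. Psmb10 (ENSMUSG00000031897, chr8:106662362-106665077, minus strand), the counterpart of Psmb7, read 6.63, 8.55 and 7.20 CPM in controls and 4.17, 3.95 and 6.58 CPM with esculetin. Psmb8 (ENSMUSG00000024338, chr17:34416690-34420428, plus strand), the counterpart of Psmb5, read 36.7, 43.1 and 39.2 CPM in controls and 31.2, 33.3 and 33.4 CPM with esculetin. In each of these genes every esculetin library was below every control, though esculetin replicate 3 of Psmb10 lay close to the lowest control. The log2 fold changes with their SE (n = 3 per group) were -0.62 ± 0.19 for Psmb9, -0.59 ± 0.22 for Psmb10 and -0.28 ± 0.10 for Psmb8, with edgeR adjusted p-values of 0.0156, 0.0376 and 0.0352. The call of Psmb9 was lost without control replicate 3. The calls of Psmb10 and Psmb8 were held in 11 and 10 of 16 alternative settings. Psmb10 lost its call when any single control replicate was left out and without esculetin replicate 1 or 2. Psmb8 lost its call without control replicate 2 or 3, without esculetin replicate 1 or 2, in DESeq2 and under the study's criterion. Psmb9 and Tap1 lie head to head and share exon sequence, with 30.4% of the 150-base windows of Psmb9 also in Tap1. Strandedness of the counting was not stated, so their shared reads cannot be told apart.

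The constitutive subunits did not move as a group. Psmb7 fell, from 82.7, 83.2 and 83.0 CPM to 58.6, 65.7 and 67.4 CPM, with no overlap and a log2 fold change of -0.38 (edgeR adjusted p = 0.00293). Psmb6 (log2 fold change 0.19) and Psmb5 (0.15) were not called, with edgeR adjusted p-values of 0.124 and 0.383. Ratios of an inducible to its constitutive partner within a library do not depend on library scaling, and 6 were computed, 3 in each table. Of the 150-base windows of Psmb5, 13.5% also occurred in other genes, and of those of Psmb7, 11.1%. The part of such shared sequence in the ratios was not tested. In the cells the ratio of Psmb8 to Psmb5, per kb of transcript, was 1.73, 1.88 and 1.62 in controls and 1.42, 1.45 and 1.09 with esculetin. The ratio of Psmb9 to Psmb6 was 0.108, 0.0967 and 0.108 in controls and 0.0619, 0.0792 and 0.0402 with esculetin. Neither pair of groups overlapped, and the log2 changes were -0.41 and -0.84. Both gave an exact permutation p of 0.1 (two-sided, 3 against 3), the smallest this design allows, and 0.2 after Benjamini-Hochberg adjustment over the 6 ratios. The ratio of Psmb10 to Psmb7 overlapped between groups and changed by -0.26 on the log2 scale (exact permutation p = 0.3, adjusted 0.45).

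**Figure D2:**
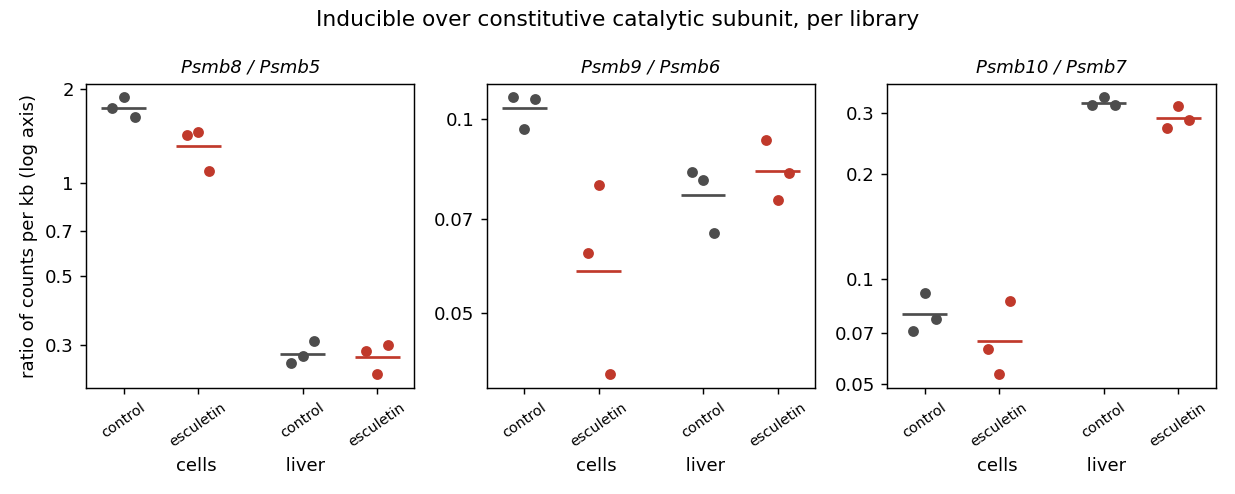
Ratio of each inducible catalytic subunit to its constitutive counterpart in each library, from counts per kb of the canonical transcript on a log axis. Points are libraries (3 control in grey, 3 esculetin in red) and lines are geometric means. In the cells, the 3 esculetin libraries lay below the controls for Psmb8 over Psmb5 and for Psmb9 over Psmb6, and in the liver these groups overlapped.

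Nlrc5 (ENSMUSG00000074151, chr8:95160984-95253900, plus strand), the transactivator of class I genes, did not share the lower levels. It read 28.8, 27.9 and 27.7 CPM in controls and 33.4, 29.9 and 29.2 CPM with esculetin. Every esculetin library lay above every control, but the gene was not called, with a log2 fold change of 0.13 (95% interval -0.10 to 0.36; edgeR adjusted p = 0.299).

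The members did not follow a single course across the 6 cell libraries. The median Pearson r over the 45 pairs of members was 0.42, and it was 0.21 once the group means were removed. As a description, the genes of at least 10 CPM most like the mean standardized level of the members were Alg3 (r = 0.997), Fmnl3, Zfat, Cops9 and Mrps34, over 6 libraries that share the treatment contrast. Among the 8824 genes ranked, 182 exceeded an r of 0.95.

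Around the 10 members, 74 other genes of the pathway were listed, and 60 of them were tested in the cells. By edgeR, 31 were called, 19 higher and 12 lower, with a median log2 fold change of 0.11, beside the 57.7% called among all genes. The wider list was thus called in both directions. Macrophage markers moved in the same libraries, with the summed level of 9 markers at 1958 to 2179 CPM in controls and 4686 to 7221 CPM with esculetin. The higher sum came mainly from Lyz2, with a mean of 638 CPM in controls and 3496 CPM with esculetin, and Csf1r, with 848 and 1654 CPM. In the same list Adgre1 rose, Cd5l fell (log2 fold change -1.98, edgeR adjusted p = 0.000880), Cd68 was not called and 4 markers were too low to test. The part of these markers in the class I results was not tested. The summed level of 6 B and plasma cell markers was 171 to 183 CPM in controls and 29.6 to 56.8 CPM with esculetin, nearly all from Ighm, while Ms4a1 was at or near 0.

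Other class I and class I-like genes gave the widest range. Of 14 tested, 4 rose and 6 fell, beside 28.7% of all genes called higher and 29.0% called lower. H2-T24, a non-classical heavy chain, read 7.41, 6.94 and 7.83 CPM in controls and 32.6, 62.0 and 57.5 CPM with esculetin, far above every control. Its log2 fold change was 2.78 ± 0.22 (SE, n = 3 per group; edgeR adjusted p = 1.72e-06). H2-T23, which encodes the non-classical molecule Qa-1 recognized by NKG2 receptors, read 36.9, 43.2 and 35.8 CPM in controls and 83.4, 115 and 98.8 CPM with esculetin. Its groups did not overlap, and the log2 fold change was 1.36 ± 0.12 (SE, n = 3 per group; edgeR adjusted p = 4.97e-06). In the opposite direction, H2-Q7, a heavy chain of the Qa-2 group, read 2.59, 3.87 and 5.74 CPM in controls and 0.732, 1.02 and 0.446 CPM with esculetin (log2 fold change -2.49, edgeR adjusted p = 0.00026). Fcgrt, the heavy chain of the neonatal Fc receptor, which also pairs with B2m, fell by 0.56 on the log2 scale (edgeR adjusted p = 0.000311).

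Of 10 genes for peptide trimming and loading chaperones, 4 rose and 1 fell, beside 28.7% of all genes called higher and 29.0% called lower. Lap3, a cytosolic leucine aminopeptidase, read 106, 110 and 116 CPM in controls and 52.2, 57.5 and 61.8 CPM with esculetin, with no overlap and a log2 fold change of -0.95 (edgeR adjusted p = 6.56e-06). The genes that rose included Pdia3, the thiol oxidoreductase of the loading complex (log2 fold change 0.47), Tpp2, a cytosolic peptidase (0.40), and Erap1, the aminopeptidase that trims peptides in the endoplasmic reticulum (0.33), with edgeR adjusted p-values of 0.00530, 0.00575 and 0.00879. Among 6 proteasome activator and assembly genes, Psme3 (log2 fold change 0.34) and Psme4 (0.41), which encode nuclear activators, rose, with edgeR adjusted p-values of 0.00603 and 0.0150. Psme1, which encodes a subunit of the interferon-inducible activator PA28, had a log2 fold change of -0.16 and Psmg1, an assembly chaperone, of -0.29, and neither was called (edgeR adjusted p = 0.144 and 0.0944).

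Of 15 regulators of class I transcription, 5 rose and 2 fell, beside 28.7% of all genes called higher and 29.0% called lower. How the regulators compare with the members was not tested. Irf9, a DNA-binding factor of the type I interferon response, read 32.8, 35.9 and 38.7 CPM in controls and 57.2, 74.6 and 76.6 CPM with esculetin, without overlap. Its log2 fold change was 0.96, that of Nfyc, a subunit of NF-Y, was 1.22, and that of Rela, the transactivating subunit of NF-kB, was 0.62, all called higher (edgeR adjusted p = 5.28e-05, 6.47e-05 and 0.000456). The regulators that fell, named after their values were seen, were Rfx5, a DNA-binding subunit of the RFX complex (log2 fold change -0.65, edgeR adjusted p = 0.000717), and Nfya, another NF-Y subunit (-0.38, edgeR adjusted p = 0.00126).

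Of 8 tested genes for interferon receptors and signalling, 4 rose and 0 were called lower by edgeR, beside 57.7% of all genes called in either direction, so the list does not stand out by its count. Jak1, the receptor-bound kinase, had a log2 fold change of 0.56 (edgeR adjusted p = 0.000333), Ptpn2, a phosphatase acting on JAK and STAT proteins, 0.36, Ifngr2 0.33 and Ifnar1 0.21, with edgeR adjusted p-values of 0.0338, 0.0381 and 0.0471 for the last 3. Ifng held 0 counts in all 6 cell libraries. Ifnb1, which encodes interferon beta and was named after its values were seen, held 0 counts in each control and 6, 16 and 10 counts with esculetin, too few to pass the filter on low counts. Class II presentation genes were mostly near 0, as H2-Aa was at 0 counts in every cell library. Of the 4 tested, 2 were called, beside 57.7% of all genes. H2-Ob (log2 fold change -3.08) and H2-Oa (-1.31), which form the class II modulator H2-O, fell (edgeR adjusted p = 0.000878 and 0.00468). Cd74, the invariant chain (-0.13), and H2-DMa, a peptide exchange factor (-0.22), were not called (edgeR adjusted p = 0.222 and 0.212).

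**Figure D3:**
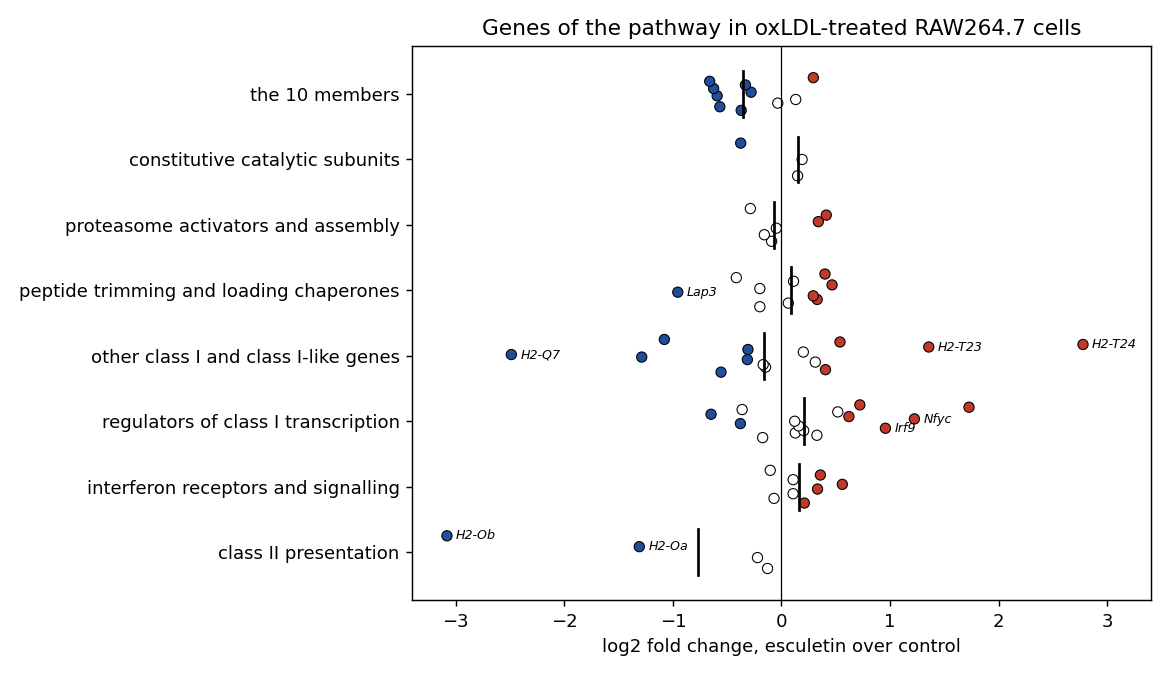
Log2 fold change (esculetin over control, horizontal axis) of every tested gene of each list in oxLDL-treated RAW264.7 cells. Each point is a gene, red where called higher, blue where called lower and white where not called, and vertical lines are list medians. The 10 members had a median of -0.35, while H2-T24, H2-T23, Irf9 and Nfyc lay to the right.

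In the livers of HFD-fed mice no member was called. By edgeR, 0 of the 10 members passed the adjusted threshold, beside 0.0859% of the 12813 genes tested (11 genes), and 1 member had an unadjusted p under 0.05, beside 8.37% of all genes. DESeq2 and limma-voom also called 0 members, as did each fit that left out a library, control replicate 1 included. The median log2 fold change of the members was -0.08, beside -0.02 over all genes, with 6 members lower and 4 higher in direction, beside 53.5% of all genes lower. Liver RNA comes from a mixture of cells, in which fewer cells of a type and less RNA per cell cannot be told apart.

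Tap2 was the member with the unadjusted p under 0.05. It read 14.3, 12.6 and 14.3 CPM in controls and 11.0, 11.2 and 10.9 CPM with esculetin, and its groups did not overlap, as in 14.5% of all genes in this table. The log2 fold change was -0.32 ± 0.15 (SE, n = 3 per group; edgeR unadjusted p = 0.0491, adjusted p = 0.593). Nlrc5 had the lowest log2 fold change, -0.45, from 13.6, 11.0 and 6.29 CPM in controls to 8.39, 7.27 and 6.86 CPM with esculetin. Control replicate 3 lay below every esculetin library, and the edgeR adjusted p was 0.649. Its fold change ranged from -0.73 to -0.20 as single libraries were left out.

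None of the class I chains was called in the liver. H2-K1 read 1376, 1563 and 1643 CPM in controls and 1526, 1415 and 1433 CPM with esculetin, H2-D1 504, 569 and 612 against 559, 506 and 516 CPM, and B2m 1862, 1678 and 1781 against 1866, 1722 and 1769 CPM. Groups overlapped in each of these genes. The 95% intervals of the log2 fold changes were -0.35 to 0.21 for H2-K1, -0.36 to 0.18 for H2-D1 and -0.26 to 0.28 for B2m. Per kb of transcript, the order in the control livers was B2m at 1633 ± 85.3 CPM per kb (SD, n = 3), H2-K1 at 944 ± 84.7 and H2-D1 at 265 ± 25.8, so that H2-K1 was above H2-D1 here and below it in the cells.

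The remaining members overlapped between the liver groups as well. Tap1 read 24.7, 21.9 and 25.8 CPM in controls and 23.8, 16.9 and 20.6 CPM with esculetin, and Tapbp 73.6, 81.7 and 90.3 against 74.9, 71.9 and 70.9 CPM. Psmb8 read 19.6, 26.4 and 36.4 against 28.8, 24.5 and 32.7 CPM, Psmb9 12.9, 15.2 and 15.7 against 18.3, 14.9 and 16.5 CPM, and Psmb10 22.7, 32.3 and 36.9 against 30.5, 36.0 and 30.3 CPM. Control replicate 1, the library that stood apart, held the lowest value of Psmb8, Psmb9 and Psmb10. The log2 fold changes were -0.24 for Tap1, -0.17 for Tapbp, 0.06 for Psmb8, 0.18 for Psmb9 and 0.07 for Psmb10, with edgeR adjusted p-values of 0.694 or above. Without control replicate 1, those of Psmb8 and Psmb10 were -0.12 and -0.10.

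**Figure D4:**
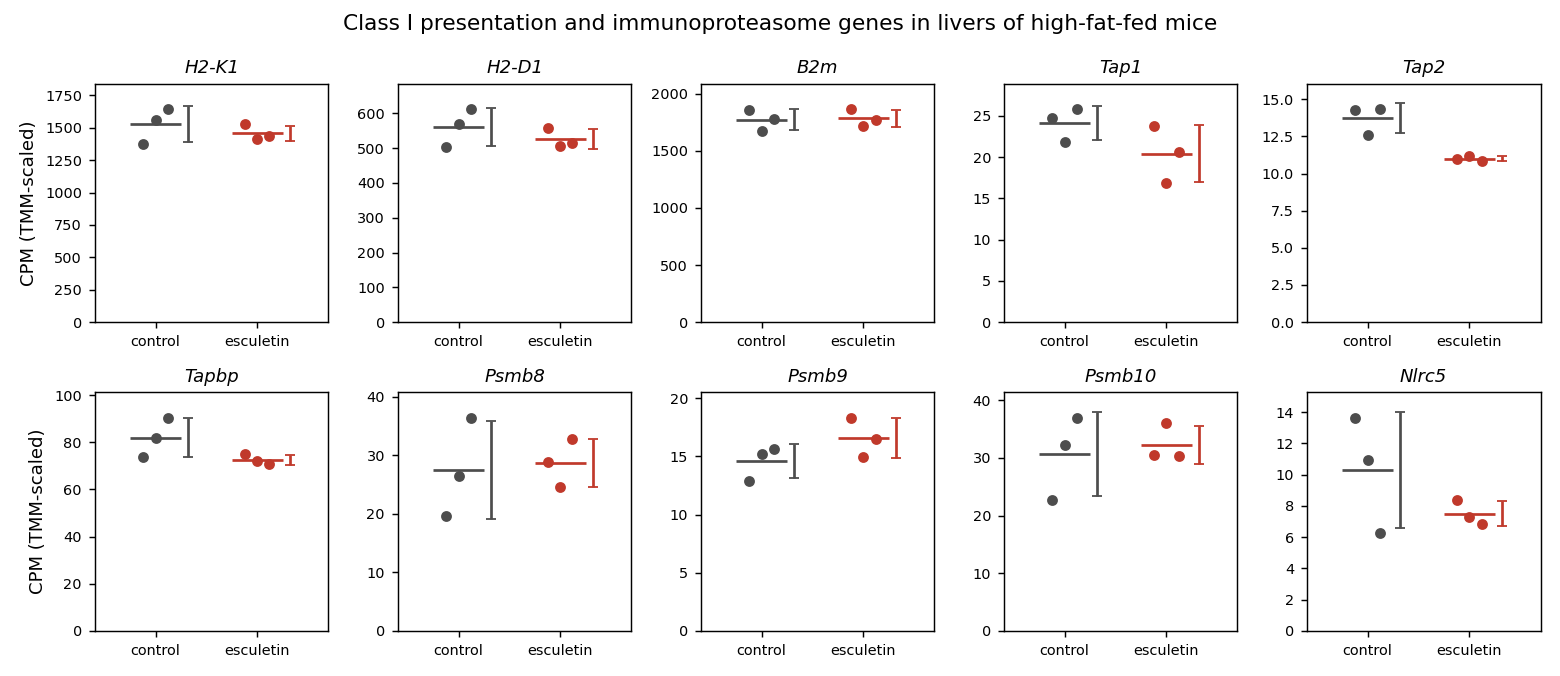
CPM (vertical axes, TMM-scaled) of the 10 genes in livers of HFD-fed mice. Points are libraries of 2 mice each, 3 control in grey and 3 esculetin in red, horizontal lines are means and bars show 1 SD. Tap2 alone had groups that did not overlap, at 12.6 to 14.3 CPM in controls and 10.9 to 11.2 CPM with esculetin.

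In the liver, the ratio of Psmb10 to Psmb7 was 0.316, 0.333 and 0.316 in controls and 0.272, 0.314 and 0.286 with esculetin. These groups did not overlap, with a log2 change of -0.15, an exact permutation p of 0.1 (the smallest possible) and 0.2 after adjustment over the 6 ratios. The ratios of Psmb8 to Psmb5 and of Psmb9 to Psmb6 overlapped, with log2 changes of -0.04 and 0.13 (exact permutation p = 0.9 and 0.5, adjusted 0.9 and 0.6). Of the wider pathway lists, 66 genes were tested in the liver and 0 were called by edgeR. At an unadjusted p under 0.05 there were 4 of 66, beside 8.37% of all genes in this table, so their number is not a result about the lists. They were named after their values were seen. By edgeR these were the regulators Irf1 (unadjusted p = 0.00553), Stat2 (0.00312) and Rfx5 (0.0204) and the heavy chain H2-Q4 (0.0209), with log2 fold changes of -0.56, -0.49, -0.60 and -0.41 and edgeR adjusted p-values from 0.305 to 0.510. DESeq2 and limma-voom called 0 of these lists as well.

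Marker lists of other liver cells were compared beside these values. The summed level of 9 Kupffer cell and macrophage markers was 418 to 508 CPM in controls and 401 to 448 CPM with esculetin, that of 9 T and NK cell markers 4.05 to 6.93 and 6.98 to 7.40 CPM, and that of 6 B and plasma cell markers 12.7 to 15.7 and 8.01 to 11.5 CPM. No marker of these lists was called by edgeR. Of the macrophage markers, 4 of 9 were lower in every esculetin library than in any control, beside 14.5% of all genes without overlap in either direction. These were Marco (log2 fold change -0.77), Cd68 (-0.50), Adgre1 (-0.31) and Csf1r (-0.28). An edgeR unadjusted p under 0.05 was found for 3 of the 9, beside 8.37% of all genes. The rest of the list was Clec4f (-0.22), Timd4 (-0.10), Cd5l (-0.08), Vsig4 (0.02) and Lyz2 (0.11). The T and NK sums differed by little in CPM, mainly through Cd4 and Trac, but every esculetin library lay above every control. Of the 5 genes tested, Cd4 (0.25), Gzma (0.60) and Trac (1.09) had log2 fold changes above 0. Cd3g (-0.03) and Nkg7 (-0.06) were below 0. For 1 of these 5 genes the edgeR unadjusted p was under 0.05, beside 8.37% of all genes. The B and plasma sums were mostly Ighm (-0.52), and every esculetin library lay below every control. Of the 4 genes tested, Cd79a (-0.62) and Cd79b (-1.27) also had log2 fold changes below 0, while Jchain was at 0.19. For 2 of these 4 genes the edgeR unadjusted p was under 0.05, beside 8.37% of all genes. The part of any of these markers in the class I values, or in those of Irf1, Stat2, Rfx5 and H2-Q4, was not tested. As a description over 6 libraries, the liver genes most like the mean standardized level of the members were Mkrn2 (r = 0.991), Tlr12, Gsta4, Rnf135 and Col1a2, and 9 of 6750 genes ranked exceeded an r of 0.95.

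The effect in the cells was compared with that in the liver in a model of all 12 libraries. These were scaled together, so that the differences are close to but not equal to those of the separate fits. The model took a common spread for each gene from both sources, while the separate fits gave H2-D1 an SE of 0.09 in the cells and 0.12 in the liver. Effects differed for H2-D1 and Psmb9, that is for 2 of the 10 members by edgeR, beside 27.1% of the 15709 genes tested (13.7% lower in the cells). For H2-D1 the difference, cells minus liver, was -0.52 ± 0.16 on the log2 scale (SE, edgeR adjusted p = 0.0207), and for Psmb9 it was -0.85 ± 0.25 (edgeR adjusted p = 0.0168). For B2m (-0.42), Tapbp (0.42) and Psmb10 (-0.70) the edgeR adjusted p-values were 0.0623, 0.0751 and 0.0765, and the remaining members had values of 0.176 or above. In DESeq2 and limma-voom the difference of B2m was also called (-0.41 with an adjusted p of 0.00197, and -0.43 with 0.00827), and in edgeR that of Psmb10 was called with no filter on low counts (adjusted p = 0.0255). Each of these 3 fits called 3 members. For the other members that fell in the cells, a difference from the liver was not shown in these fits. The call of H2-D1 was lost without cell control replicate 2, liver control replicate 1 or 2 or any single liver esculetin replicate, and that of Psmb9 without liver esculetin replicate 1. Without single libraries the count was 0 without liver esculetin replicate 1 and 1 without cell control replicate 2, liver control replicate 2 or liver esculetin replicate 2 or 3. It was 3 without cell esculetin replicate 1 or 3 and 5 without liver control replicate 3. The treatments differed in dose, time and route as well as in cell type, and their parts cannot be told apart.

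**Figure D5:**
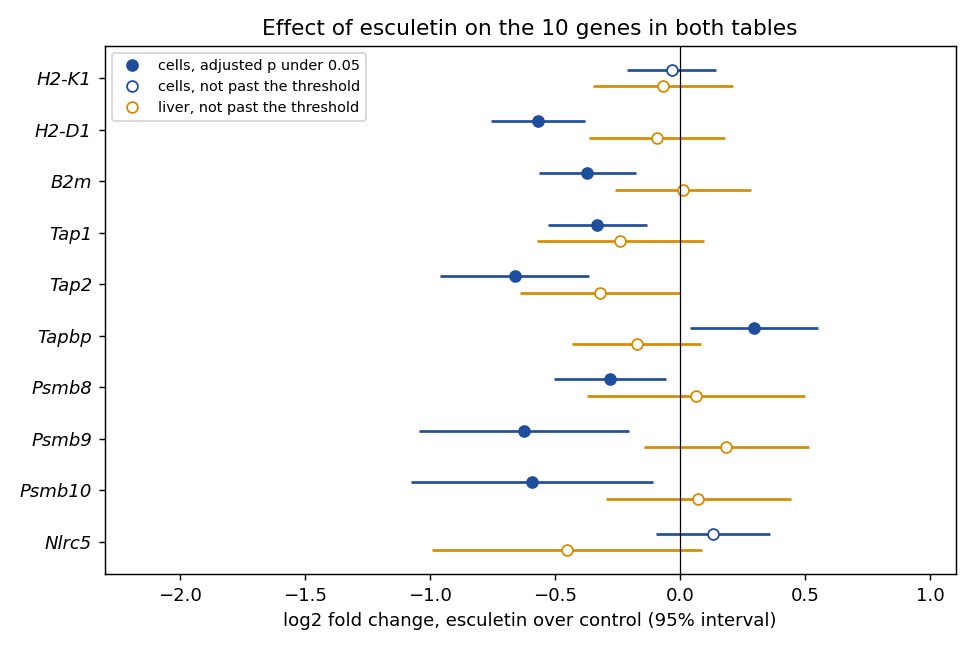
Log2 fold change of esculetin over control (horizontal axis) with its 95% interval for each of the 10 genes, cells in blue and liver in orange, n = 3 libraries per group. Filled points had an edgeR adjusted p under 0.05. In the cells 7 genes fell and Tapbp rose, and in the liver no gene passed the threshold.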

How the data were processed

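RNA-seq was performed on 6 liver and 6 RAW264.7 libraries. The values are raw counts per gene, deposited by the authors as 1 table for each source. Per the study's methods and the submitters' processing notes, the authors prepared NEBNext Ultra libraries, mapped paired reads to GRCm39 with HISAT2 2.2.1 and counted them with featureCounts. Strandedness and the handling of reads with several matches are not given in the sources used here. Total counts per library were 13752842 to 20346460, which limits precision most for genes below 10 CPM. Gene symbols and positions came from a GENCODE annotation of GRCm39 (54749 of 55357 identifiers matched, 608 did not).

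Each table was fitted alone with edgeR 4.0.16 in R 4.3.3 (filterByExpr, TMM, quasi-likelihood F test, two-sided), with treatment as the only term and Benjamini-Hochberg adjustment over all genes tested. Levels per kb used the Ensembl canonical transcript. Differences between the cells and the liver were tested in a 4-group fit of all 12 libraries. Subunit ratios were compared by exact permutation. Correlations used log2 CPM with 0.2 CPM added. Alternatives were RLE, upper quartile and library size scaling, fits by limma-voom (limma 3.58.1) and by DESeq2 1.42.0, no filter or a filter of 1 CPM, the study's criterion, robust fits, a replicate block, summed heavy chain genes and leaving out each library. The code was tested on simulated data. Figures were drawn with Python 3.11.15 and matplotlib 3.10.9.

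The members and gene lists were chosen with earlier results of these data known. The rule for naming genes took the members, Psmb5, Psmb6 and Psmb7, up to 4 genes with the smallest p in the cells from each other list, any gene called in the liver, and the 5 genes most like the members in each table. Marker lists were compiled from general knowledge. Some items that this rule or a marker list would name are not reported here.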

Additional observations from a re-analysis of the deposited data

Results flagged for a closer look

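For 2 of the 10 members the effect of esculetin in the cells differed from that in the liver in the 4-group edgeR fit. This stands beside 27.1% of the 15709 genes tested. The difference of log2 fold changes, cells minus liver, was -0.52 for H2-D1 (edgeR adjusted p = 0.0207), which fell in 3 of 3 esculetin cell libraries relative to every control and overlapped in the liver. It was -0.85 for Psmb9 (edgeR adjusted p = 0.0168), with the same pattern of overlap. The call of H2-D1 was lost without cell control replicate 2, liver control replicate 1 or 2 or any single liver esculetin replicate. That of Psmb9 was lost without liver esculetin replicate 1. Groups of 3 libraries are too small for a check of single outlying values.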

How the results depend on the processing

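The count of 8 members called in the cells was 7 or 8 under other scalings, filters, DESeq2, limma-voom and robust fits, 3 under the study's criterion and 3 to 7 as single libraries were left out. The count of 31 pathway genes in the cells was 14 under that criterion, and the count of 0 in the liver was 2 with no filter on low counts and 1 under the criterion. No member was called in the liver under any of 16 alternatives. The count of 2 members with different effects ran from 0 to 5 with single libraries left out. The fall of Tap2 held in all 16 alternatives, and in the cells the only change of direction was that of H2-K1, -0.0695 to 0.0154 with single libraries left out. In the liver, uncalled values near 0 changed sign. B2m was -0.0594 under library size scaling and -0.0083 with a filter of 1 CPM, and without single libraries it ran from -0.0365 to 0.0502, Psmb8 from -0.12 to 0.30, Psmb10 from -0.10 to 0.21 and the Psmb8 to Psmb5 ratio from -0.0987 to 0.0574. The difference of H2-K1 between cells and liver was 0.0119 under RLE factors, 0.0120 in DESeq2, 0.0316 under upper quartile scaling, 0.0273 under library size scaling and -0.0519 to 0.119 without single libraries, and that of Tap1 was -0.204 to 0.0591. The cause of these changes was not tested, apart from the loss of samples in each fit that left 1 out.

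Deviations of same-numbered control and esculetin libraries correlated at 0.14, -0.01 and 0.10 in the liver. In the cells these values were 0.17, -0.03 and 0.09. Pairs with different numbers lay between -0.156 and 0.0954 (liver) and between -0.181 and 0.115 (cells). The pair of replicates 1 was the highest of each table. Whether same-numbered libraries share more than a number was not tested. With the replicate block, calls over all genes went from 7667 to 7982 in the cells and from 11 to 123 in the liver, members called stayed at 8 and 0, and members with different effects went from 2 to 3 with Psmb10 added (edgeR adjusted p = 0.0425). Depth limits Psmb9 and Psmb10 most, with 3.95 to 11.2 CPM in the cells.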
